A study of Mus musculus with 4 samples.

Results

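The mammary gland of mice that carry a PPARδ transgene was compared with that of wild-type mice while both were fed the PPARδ agonist GW501516. The comparison uses 2 of the 4 arrays of the series: the pool labelled MMTV-PPARd on GW501516 chow and the pool labelled WT on GW501516 chow. Both genotypes were female, nulliparous mice of the FVB background, described in the labels as age-matched littermates, with no age stated. Both pools had received GW501516 for 1 week, so the agonist is common to both sides of the comparison. The labels disagree on the agonist content of the diet: the protocol states 0.005% and a treatment tag 0.001%. The other 2 arrays, MMTV-PPARd and WT on standard rodent chow, share no array with the comparison on GW501516, and their values are set beside it. RNA of 5 mice was pooled before labelling, and each group was 1 array of 1 pool. There is therefore no replicate spread, no test was made, and every difference below describes these pools.

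The transgene is driven by the promoter of the mouse mammary tumour virus (MMTV), which is active mainly in mammary epithelium and also in other secretory epithelia, such as the salivary gland, and in lymphoid tissue. PPARδ is a nuclear receptor that binds DNA as a partner of a retinoid X receptor and switches on genes of fatty acid handling when a fatty acid or a synthetic agonist such as GW501516 occupies it. In the mammary gland, secretory alveoli normally arise in pregnancy under prolactin, whose signal runs through JAK2 and STAT5 and works with the transcription factor ELF5. The alveoli then make caseins, whey proteins, lactose and lipid droplets, which are absent or low in the ducts and fat pad of a nulliparous animal.

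Values are intensities of Affymetrix probe sets on a linear scale in arbitrary units. A gene is represented by whichever of its probe sets was brightest on average, and levels of different genes are not compared. Before taking log2, any intensity under 20.5 (the 25th percentile over the 4 arrays) was set to that floor. A fold with 1 side at the floor is given as at least N-fold. A gene was kept if any of the 4 arrays reached 139 (the median over the arrays), and 7836 of 12394 named genes passed. Each pair of intensities below is in the order wild type, then transgenic. The arrays had median intensities between 137.15 and 144, a common trimmed mean of 500.2, and 24.2% to 25.3% of values below the floor. Between the GW501516 arrays, the middle Gapdh control read 10826 and 9988 and the middle 18S RNA control 7074 and 11960. On the transgenic chow array the middle Gapdh control read 2986, against 7171 on the wild-type chow array. A spiked bacterial control (the middle BioB probe set) read 32.4 on the transgenic chow array, against 507.6 on the wild-type chow array. Values on chow thus rest on an array whose Gapdh and BioB controls stood apart.

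Ppard itself had intensities of 2.1 and 1943 on chow and 1.5 and 4223.5 on GW501516. Both wild-type pools lay below the floor and both transgenic pools far above it, so the Ppard signal was at least 206-fold higher in the transgenic pool on GW501516. Ppard had 1 probe set, which does not tell message of the transgene from that of the mouse's own gene. Whether this probe set detects the latter was not tested. Within the transgenic genotype the intensity was 2.17 times higher on GW501516 than on chow.

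Over all 7836 genes, 221 were at least 2-fold higher in the transgenic pool on GW501516, which is 2.82% of those kept, and 93 were at least 2-fold lower, which is 1.19%. Of the differences this large, 70.4% were thus toward higher expression, while the median log2 difference over all kept genes was 0.00. Larger differences leaned the same way, with 60 genes at least 4-fold higher against 14 lower and 24 at least 8-fold higher against 10 lower. On chow, 428 genes (5.46%) were higher by 2-fold or more in the transgenic pool and 291 (3.71%) were lower. Counts of list members below are to be read beside these shares on each diet. A short list with no member at 2-fold lies near them, and that count alone says little about the list. Of the 221 higher genes, 89.1% also lay above 0 on chow, where 51.8% of all kept genes did. Of the 93 lower genes, 51.6% also lay below 0 on chow, beside 48% of all kept genes. In 183 of the 221, both transgenic pools exceeded both wild-type pools, beside 20.9% of all kept genes. The choice of these genes fixes the GW501516 side of that order. Of the higher genes, 30 passed the filter only through the transgenic GW501516 array, and 17 of the lower genes only through the wild-type GW501516 array. For these the filter fixes the direction of the difference, though not its size. The genes nearest the threshold were Rnf128 at 1.001 and Agbl5 at 0.996 on the log2 scale on the higher side, and Clstn3 at -1.003 and Ido1 at -0.997 on the lower side.

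**Figure D1:**
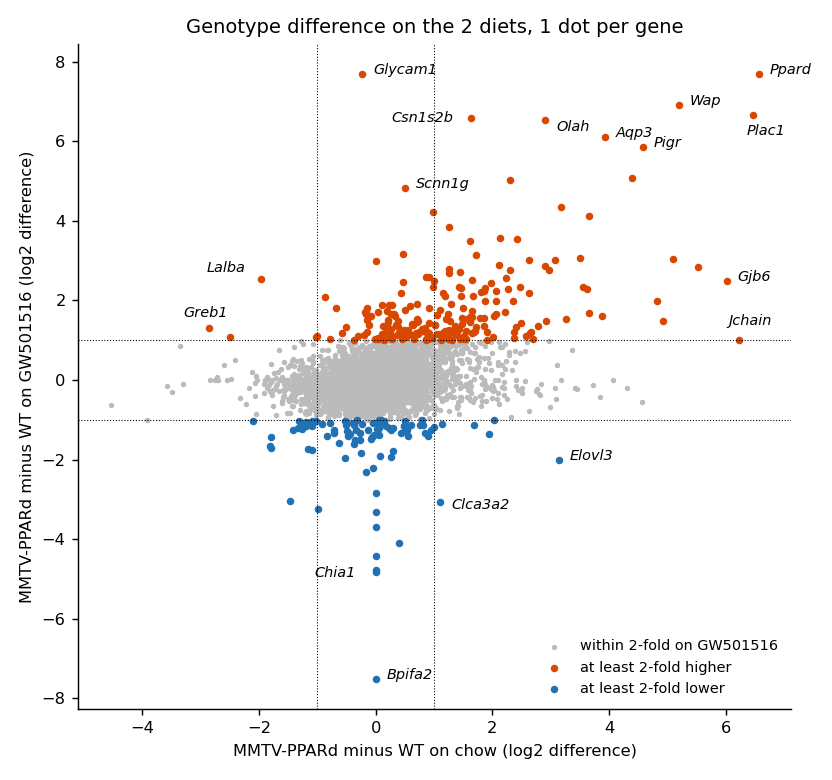
Genotype difference (MMTV-PPARd minus WT, log2) of each of the 7836 kept genes on GW501516 (vertical) against the same difference on chow (horizontal), with dotted lines at 2-fold; orange dots are the 221 genes at least 2-fold higher on GW501516 and blue dots the 93 at least 2-fold lower. Most orange dots lie to the right of 0 on the chow axis, whereas the blue dots spread to both sides, and Glycam1, Lalba and Elovl3 stand away from the diagonal.

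The only measure of technical scatter within this comparison is between probe sets of the same gene on the same arrays. Over 2536 genes with a further probe set that reached the threshold, the log2 difference of the kept probe set minus that of the others had an SD of 0.358, which holds no scatter between pools. Of the 221 higher genes, 54 had such a further probe set, and the median of their other probe sets lay above 0 in 52, at 2-fold or more in 35. Of the 93 lower genes, 18 had one, and that median lay below 0 in all 18, at 2-fold or more in 8. Any value on the same side of 0 counts here, such as -0.12 for Mtch2 and -0.06 for Cox15.

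Genes of milk secretion were among the largest differences. Of the 5 caseins, which form the micelles of milk, 2 were at least 2-fold higher and 5 of 5 lay above 0, with a median log2 difference of 0.83 beside 0.00 for all kept genes and 2.14 for the same list on chow. Of 13 whey and secreted milk proteins 10 were higher by 2-fold or more and 0 were lower, the median being 2.23 beside 0.31 on chow. Of 12 genes of the milk fat globule and of fatty acid release, 5 were at least 2-fold higher, with a median of 0.86 beside 0.15 on chow. The milk genes differed among themselves in whether the transgene alone was accompanied by a higher level, as the intensities below show.

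The sequences upstream of 4 of these genes are printed because their members differ in that respect although all are milk genes. Each run holds the 250 bases before the annotated start in RefSeq's GRCm38.p6 annotation, 5′ to 3′ on the gene's strand, in lower case. Capitals mark a match to TTCNNNGAA, the palindrome that STAT5 recognises. The windows are chr5:87665958-87666207, strand + for Csn1s1, chr5:87699426-87699675, strand - for Csn2, chr15:103565082-103565331, strand - for Glycam1 and chr11:6638650-6638899, strand - for Wap.
Csn1s1: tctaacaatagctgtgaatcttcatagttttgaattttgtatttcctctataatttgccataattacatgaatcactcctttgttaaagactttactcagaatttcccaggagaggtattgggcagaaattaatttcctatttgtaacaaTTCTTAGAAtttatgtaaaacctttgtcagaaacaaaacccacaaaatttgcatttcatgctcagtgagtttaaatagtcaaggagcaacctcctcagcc
Csn2: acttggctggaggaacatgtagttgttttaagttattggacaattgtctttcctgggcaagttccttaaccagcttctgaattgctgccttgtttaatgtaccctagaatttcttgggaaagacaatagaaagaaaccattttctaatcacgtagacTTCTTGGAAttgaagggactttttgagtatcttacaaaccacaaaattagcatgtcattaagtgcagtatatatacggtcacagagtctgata
Glycam1: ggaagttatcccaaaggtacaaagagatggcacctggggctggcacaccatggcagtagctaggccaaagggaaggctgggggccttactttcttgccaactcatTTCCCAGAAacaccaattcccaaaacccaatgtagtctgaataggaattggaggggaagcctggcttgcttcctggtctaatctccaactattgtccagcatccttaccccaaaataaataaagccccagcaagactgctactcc
Wap: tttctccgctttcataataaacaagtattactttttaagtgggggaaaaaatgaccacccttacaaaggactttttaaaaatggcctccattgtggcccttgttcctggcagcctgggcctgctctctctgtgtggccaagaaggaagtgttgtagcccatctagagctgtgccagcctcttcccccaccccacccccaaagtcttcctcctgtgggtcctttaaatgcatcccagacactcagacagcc
The match begins 100 bases before the start in Csn1s1, 93 in Csn2 and 145 in Glycam1, and the Wap window holds none. Such a match was found in 2 of the 3 casein promoters in the table, in 2 of 12 promoters of the whey list and in 0 of 7 of the milk fat list. Among promoters of the 221 higher genes, of which 176 had an entry, 15 of 227 (6.61%) held it, beside 7 of 73 (9.59%) for the lower genes and 478 of 8240 (5.8%) for all kept genes. In the whole table of windows of this length the share was 7.02%. The motif reads the same on both strands, and a match describes letters in this window only.

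Csn1s2b had intensities of 1.2 and 63.8 on chow and 2.7 and 1954 on GW501516 and was at least 95.3-fold higher with the transgene on GW501516. It was thus close to unexpressed in both wild-type pools, low in the transgenic pool on chow and high only where transgene and agonist were combined. Csn1s1, the alpha-casein, had intensities of 2490 and 13145 on chow and 8302 and 21047 on GW501516 (2.54-fold higher on GW501516, 5.28-fold higher on chow). Csn1s2a read 3215 and 14140 on chow and 11884 and 21072 on GW501516, Csn2, the beta-casein, 2258 and 10562 on chow and 11104.5 and 15562 on GW501516, and Csn3, the kappa-casein that caps the micelle, 8043 and 5264 on chow and 11756 and 15988 on GW501516. These last 3 were within 2-fold on GW501516, at log2 differences of 0.83, 0.49 and 0.44, and for each the wild-type pool on GW501516 was already above the wild-type pool on chow. A further Csn1s2a probe set gave 3.10 and a further Csn3 probe set -0.75, so the probe sets of these 2 genes disagreed by more than the SD above. The Csn1s2a intensity was the highest on the transgenic GW501516 array, and whether signals this bright understate a difference was not tested. With the mean over a gene's probe sets, the casein median was 1.34 and 3 caseins reached 2-fold. Summed over the list, casein intensity was 16007 and 43175 on chow and 43050 and 75623 on GW501516.

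Wap, the whey acidic protein of late pregnancy and lactation, had intensities of 29.8 and 1098 on chow and 98.6 and 11881 on GW501516. It was 120-fold higher with the transgene on GW501516 and 36.8-fold higher on chow, so it stood high in both transgenic pools and highest in the one given the agonist. Lalba, the alpha-lactalbumin subunit of lactose synthase, read 624.5 and 159 on chow and 1768 and 10325 on GW501516, 5.84-fold higher with the transgene on GW501516 but 3.93-fold lower on chow. B4galt1, the galactosyltransferase that pairs with it, read 1465.5 and 1136 on chow and 1225 and 2477 on GW501516 and was 2.02-fold higher, or 0.98 on the log2 scale after quantile normalization. Both components of lactose synthase were therefore highest on the array of the transgenic pool given the agonist.

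Lao1, an L-amino acid oxidase of milk, had intensities of 92.5 and 221 on chow and 719 and 10319 on GW501516 (14.4-fold higher on GW501516). Folr1, a folate receptor, read 354 and 847 on chow and 749.5 and 5162 on GW501516 (6.89-fold higher), and Cel, the bile salt-stimulated lipase of milk, 65.4 and 283 on chow and 96.5 and 722 on GW501516 (7.48-fold higher). Wfdc18, a small WAP-domain protein, read 2937 and 10619 on chow and 3323 and 15607 on GW501516 (4.7-fold higher) and Ltf, the iron-binding lactoferrin, 679.6 and 427 on chow and 1482 and 5185 on GW501516 (3.5-fold higher). Of these, Lao1, Folr1, Cel and Wfdc18 were also at least 2-fold higher on chow, whereas Ltf was 1.59-fold lower there. Muc15, a membrane mucin, read 579.5 and 5582 on chow and 1542.5 and 4491 on GW501516 and was the exception to the order, with its highest value in the transgenic pool on chow. Mfge8, which coats fat globules and tags dying cells, was 1.85-fold higher and Lcn2, a siderophore-binding defence protein, 1.47-fold higher. Wfdc2 lay at a log2 difference of -0.02, and Lpo, the lactoperoxidase, did not reach 139 on any array (1.3 and 35.8 on GW501516).

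Glycam1, a mucin-like protein made by milk-secreting epithelium and by the high endothelial vessels of lymph nodes, had intensities of 9535 and 8128 on chow and 2.2 and 4207 on GW501516. It was at least 205-fold higher with the transgene on GW501516 and near equal on chow, and the wild-type pool on GW501516 alone was below the floor. Lymphocyte markers, like Glycam1, were lower on both GW501516 arrays than on both chow arrays. The 12 T cell markers kept summed to 6898 and 2295 on chow and to 617 and 543 on GW501516, and the 7 B cell markers to 3023 and 1578 on chow and to 214 and 148 on GW501516. Between the GW501516 arrays, on which 5 of 12 T cell and 3 of 7 B cell markers were at the floor on both, Glycam1 thus differed while the summed lymphocyte markers were low in both pools. The part of lymphoid tissue in its level was not tested.

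**Figure D2:**
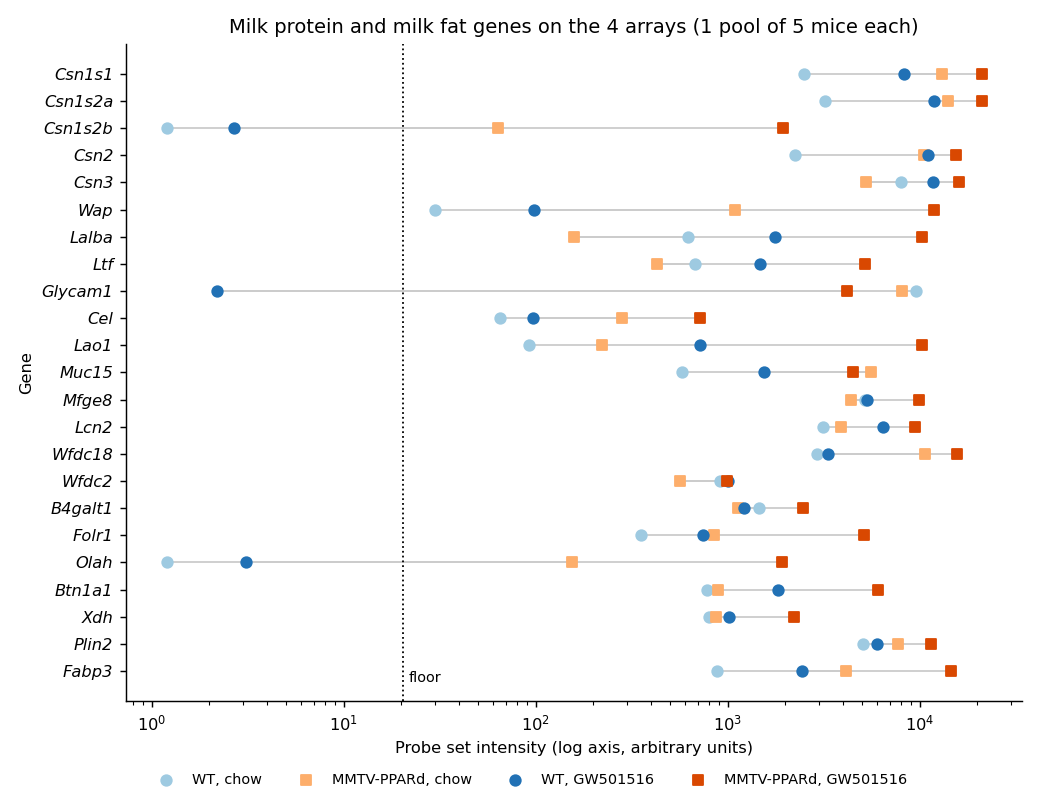
Probe set intensity (log axis, arbitrary units) of the kept caseins, whey proteins and 5 milk fat genes on each of the 4 arrays, 1 point per array, with the floor of 20.5 as a dotted line; values between genes are not comparable. The transgenic pool on GW501516 (dark orange squares) is the rightmost point for most genes, with Muc15, Glycam1 and Wfdc2 as the exceptions.

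Milk fat genes followed the whey proteins. Olah, the thioesterase that ends fatty acid synthesis at medium chain length in the lactating gland, read 1.2 and 154 on chow and 3.1 and 1912 on GW501516 and was at least 93.2-fold higher, with 5.83 on the log2 scale from a further probe set. Fabp3, a fatty acid binding protein of heart, muscle and lactating mammary gland, read 884 and 4160 on chow and 2436 and 14533 on GW501516 (5.97-fold higher on GW501516, 4.71-fold higher on chow). Muc1, an apical mucin, read 27.6 and 207 on chow and 65.7 and 479 on GW501516 (7.29-fold higher). These 3 were higher in both transgenic pools.

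Btn1a1 and Xdh, the butyrophilin and xanthine dehydrogenase that envelop secreted droplets, read 784 and 893 on chow and 1821 and 6050 on GW501516 and 799.8 and 868 on chow and 1017 and 2207 on GW501516. They were 3.32-fold higher and 2.17-fold higher on GW501516 but differed by only 0.19 and 0.12 (log2) on chow. Plin2, the droplet coat protein, was 1.92-fold higher, Cidea, a droplet fusion protein, 1.71-fold higher, Gpat4 1.5-fold higher and Rab18 1.33-fold higher, all within 2-fold. The lipid uptake genes Lpl (0.12), Cd36 (0.16) and Vldlr (-0.39) lay near 0 on the log2 scale. Of the 12 genes, Vldlr alone lay below 0.

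Regulators of the alveolar fate were higher to a smaller degree. Of 16 kept genes of alveolar transcription factors and prolactin signalling, 3 reached 2-fold upward and 1 downward, beside 2.82% and 1.19% of all kept genes. The median was 0.38 beside 0.56 on chow. Elf5, the transcription factor that drives alveolar differentiation, had intensities of 882 and 4920 on chow and 1295 and 6524 on GW501516 and was 5.04-fold higher on GW501516 and 5.58-fold higher on chow. Id2, needed for alveolar growth, read 1236 and 3551 on chow and 893 and 1917 on GW501516 (2.15-fold higher), and Ccnd1, the cyclin D1 of alveolar expansion, 1320 and 3164 on chow and 1423 and 2914 on GW501516 (2.05-fold higher). With the mean over its probe sets Id2 was just under 2-fold, at 0.97 on the log2 scale. Elf5, Id2 and Ccnd1 stood higher in both transgenic pools than in both wild-type pools.

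Stat5a, the transducer of the prolactin signal, was 1.73-fold higher on GW501516 and 1.76-fold higher on chow. Stat5b and Jak2 differed by 0.22 and 0.19, Gata3, a luminal fate factor, by 0.45, Ehf by 0.73, Nfib by 0.33, Cebpb by 0.18, Akt1 by 0.44 and Xbp1, a factor of secretory cells, by 0.52 on the log2 scale. Of the feedback genes of STAT signalling, Socs3 read 540.2 and 417 on chow and 583 and 265 on GW501516 (2.2-fold lower), but its other probe sets gave a median of -0.36, and the mean over its probe sets gave -0.62. Socs2 (-0.40) and Cish (-0.01) were within 2-fold. Runx1 lay at -0.06. Elf3, Erbb4, Socs1 and Tnfrsf11a, the receptor RANK, did not reach 139 on any array. Tnfrsf11a, below that filter, still read 41.5 and 92.2 on chow and 41.5 and 112 on GW501516.

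Carriers and channels of a secretory epithelium included several of the largest differences. Of 16 kept transport genes, 8 reached 2-fold upward and 0 downward, beside 2.82% and 1.19% of all kept genes. The median was 0.91 beside 0.43 on chow. With no filter, 11 of 24 reached 2-fold upward and 1 downward, and the median was 0.53. Aqp3, a water and glycerol channel, had intensities of 51.0 and 780.0 on chow and 26.4 and 1808.5 on GW501516 (68.5-fold higher). Slc34a2, the sodium-phosphate carrier of lactating mammary and lung epithelium, read 36.3 and 456 on chow and 92.9 and 1632 on GW501516 (17.6-fold higher) and Slc28a3, a nucleoside carrier, 209.8 and 1126 on chow and 366 and 4281 on GW501516 (11.7-fold higher). Aqp3, Slc34a2 and Slc28a3 were also at least 5-fold higher on chow.

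Scnn1g and Scnn1b, the gamma and beta subunits of the epithelial sodium channel, behaved otherwise on chow. Scnn1g read 82.3 and 116.5 on chow and 31.7 and 896.5 on GW501516 and Scnn1b 81.6 and 73.8 on chow and 95.7 and 334 on GW501516, so that both were high only in the transgenic pool given GW501516, 28.3-fold higher and 3.49-fold higher. The light chain of a large neutral amino acid carrier, Slc7a5, read 381 and 460.0 on chow and 207 and 761 on GW501516 (3.68-fold higher) and was likewise highest in that pool, and its heavy chain Slc3a2 was within 2-fold at 0.30. Slc2a1, the glucose carrier that feeds lactose synthesis, read 851 and 1192 on chow and 615 and 1474 on GW501516 (2.4-fold higher), and Slc39a8, a zinc carrier, 183 and 765 on chow and 176 and 559 on GW501516 (3.18-fold higher, its further probe set being at the floor on both GW501516 arrays and the mean over both giving 0.83 on the log2 scale). The basolateral carrier Slc12a2 and the channel Aqp5 lay at 0.08 and -0.01.

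By the list median, the machinery of protein secretion differed less than its cargo. Genes of the secretory pathway and of chaperones of the endoplasmic reticulum had a median of 0.14 beside 0.06 on chow, and 20 of the 26 lay above 0. None of the 26 reached 2-fold, which is near the shares of all kept genes (2.82% higher and 1.19% lower). The highest were Ssr4, a subunit of the translocon-associated complex, at 0.80 and Sec23b, a coat protein of transport vesicles, at 0.72. Hspa5, the main chaperone of that compartment, lay at 0.13 and Ddit3, a stress-induced transcription factor, at 0.10.

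Structural genes of the epithelium bear on how much epithelium each pool held. Of 17 luminal genes 1, Muc1, was at least 2-fold higher, with a median of 0.37 beside 0.75 on chow. The luminal keratins Krt8, Krt18, Krt19 and Krt7 differed by 0.56, 0.16, 0.21 and -0.42 on the log2 scale. Epcam, an epithelial adhesion molecule, was 1.54-fold higher, Cldn3, Cldn7 and Cldn4, claudins of the tight junction, 1.89-fold higher, 1.88-fold higher and 1.52-fold higher, and Cdh1, the E-cadherin, lay at -0.16. Of the remaining luminal genes, Cd24a (0.37), Prom1 (0.04), Foxa1 (-0.12), Kit (-0.49) and Aldh1a3 (-0.94) were all within 2-fold. Esr1, the estrogen receptor, and Elf3 did not reach 139 on any array. Krt8, as a check of the labelled tissue, read 6057 and 5932.5 on chow and 5613 and 8266 on GW501516, and Adipoq, of the mammary fat pad, 13888 and 9984 on chow and 14185.5 and 15056.5 on GW501516, so epithelium and fat were both present on every array. Summed luminal intensity was 32344 and 41585 on GW501516. In bulk tissue, more cells of a type and more RNA per cell cannot be told apart, and the part of epithelial content in the milk gene differences was not tested.

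Basal and myoepithelial markers were split. Of 12 kept, 1 was at least 2-fold higher and 1 lower, and their median of 0.04 changed sign with the processing, over a range from -0.11 to 0.25. Krt14, a basal keratin, had intensities of 323 and 3652 on chow and 335 and 2818 on GW501516 and was 8.41-fold higher, with 2.01 on the log2 scale as the median of its other probe sets. Its pairing keratin Krt5 read 231 and 408 on chow and 326 and 229 on GW501516 and Krt15 360.4 and 947.5 on chow and 180.5 and 114 on GW501516, both lower on GW501516 by less than 2-fold, so Krt14 was not matched by the keratins of its cell type. Snai2, a transcription factor of basal and mesenchymal cells, read 249 and 464 on chow and 371 and 139 on GW501516 (2.66-fold lower). Trp63, the p63 factor of basal cells, and Acta2, a myoepithelial actin, lay at 0.08 and -0.00, with Myh11 (0.41), Mylk (0.45), Cnn1 (0.30), Tagln (-0.11), Krt17 (-0.42) and Itga6 (0.43) also within 2-fold. Cdh3, Itgb4 and Oxtr did not reach 139 on any array. Of 4 skin keratinocyte markers kept, Krt79 was 2.61-fold higher and Krt10 lay at 0.23, while Krt1 and Krt2, which define the epidermis, were below the floor on all 4 arrays.

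Junction genes lay above 0 in 15 of 19 on GW501516 and in 18 on chow. Of the 19, 4 were at least 2-fold higher on GW501516 and 9 on chow, beside 2.82% and 5.46% of all kept genes. The medians were 0.40 and 0.99. In 13 of 19 both transgenic pools exceeded both wild-type pools, beside 20.9% of all kept genes. Gjb2 and Gjb6, gap junction connexins, read 50.4 and 1730 on chow and 72.8 and 603 on GW501516 and 10.5 and 1326 on chow and 22.1 and 123 on GW501516. They were 8.28-fold higher and 5.58-fold higher on GW501516, and 34.3-fold higher and at least 64.7-fold higher on chow, so that the transgenic pool on chow was the highest of all. With the floor at the 40th percentile, the Gjb6 difference on GW501516 was 0.79 on the log2 scale. Ocln, the occludin of tight junctions, was 3.02-fold higher and Tjp3, a tight junction scaffold, 2.82-fold higher. Gja1, the connexin of myoepithelium and stroma, lay at -0.68.

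Genes of antibody transport and innate defence were also among the highest. Pigr, through which epithelium passes IgA into milk, had intensities of 18.1 and 489.5 on chow and 36.5 and 2115 on GW501516 and was 57.9-fold higher, with 6.47 on the log2 scale from a further probe set. The 9 kept genes of IgA transport and plasma cells had a median of 0.32, beside -0.60 on chow. Igha, the IgA heavy chain, read 229 and 6955 on chow and 503 and 1409 on GW501516 (2.8-fold higher) and Jchain, the joining chain, 68.9 and 5161 on chow and 112 and 227 on GW501516 (2.02-fold higher). Both were highest by far in the transgenic pool on chow, whereas Pigr was highest in the transgenic pool on GW501516. The other plasma cell markers kept did not reach 2-fold, with Sdc1 at -0.61, Derl3 at 0.60 and Irf4 at -0.83.

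Of 19 acute phase and innate defence genes, 7 reached 2-fold upward and 2 downward, beside 2.82% and 1.19% of all kept genes. The median was 0.55 beside -0.51 on chow, or 0.14 over 24 genes with no filter. Saa1 and Saa2, near-identical serum amyloid A proteins whose probe sets may share signal, read 9.2 and 429 on chow and 82.5 and 2794 on GW501516 and 8.4 and 101 on chow and 31.5 and 1024.5 on GW501516, 33.9-fold higher and 32.5-fold higher on GW501516. Tlr2, a receptor for bacterial lipoproteins, read 184 and 364 on chow and 137 and 689.6 on GW501516 (5.04-fold higher), Lbp, the lipopolysaccharide binding protein, 611 and 870.2 on chow and 506.5 and 1711 on GW501516 (3.38-fold higher), and Chil1, a chitinase-like protein, 219 and 265 on chow and 582 and 1827 on GW501516 (3.14-fold higher). S100a8, a calcium-binding protein of neutrophils, read 257.5 and 266 on chow and 123 and 405 on GW501516 (3.29-fold higher), but its partner S100a9 was within 2-fold at 52.2 and 76.9 on GW501516, and of 11 neutrophil markers only 3 were kept. The higher members were not joined by Hp (-0.62), Orm1 (-0.84) or Serpina3n (-0.48), and the fibrinogen chains Fgb and Fgg were lower, with intensities of 63.5 and 32.0 on chow and 309.9 and 32.7 on GW501516 and 291 and 106 on chow and 776 and 95.1 on GW501516 (9.48-fold lower and 8.16-fold lower). Both fibrinogen chains stood highest in the wild-type pool on GW501516.

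**Figure D3:**
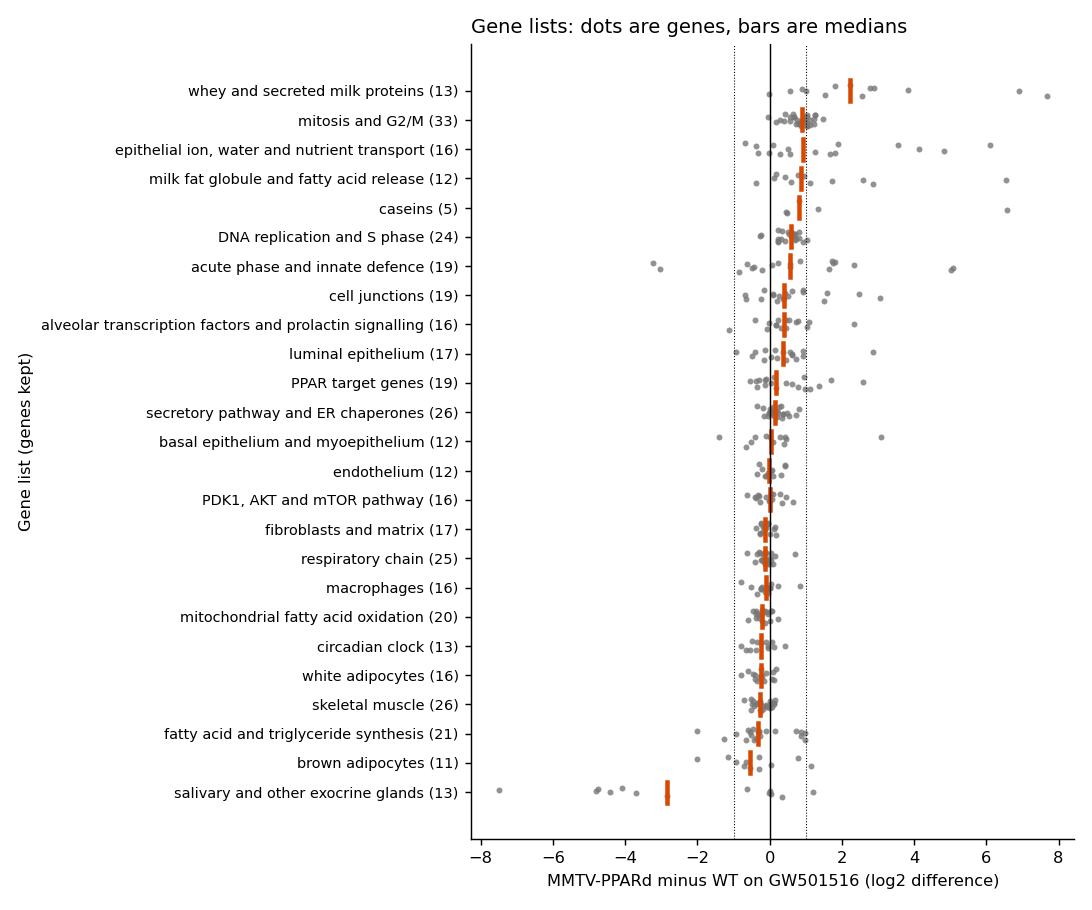
Log2 difference (MMTV-PPARd minus WT on GW501516) of each kept gene in 25 gene lists, with the number of kept genes in brackets, list medians as orange bars and dotted lines at 2-fold. Most whey protein genes lie beyond 2-fold, with a median of 2.23, while white adipocytes, muscle, fibroblasts and the respiratory chain have medians between -0.25 and -0.12. Of the salivary genes, 6 passed the filter only through the wild-type array, so their position is partly set by it.

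Genes of cell division were an even group. Of 33 kept genes of mitosis and the G2/M phase, 12 reached 2-fold upward, beside 2.82% of all kept genes, and 0 downward, 32 lay above 0, and the median was 0.91, beside 0.93 on chow with 13 at least 2-fold higher. In 31 of the 33, both transgenic pools exceeded both wild-type pools, beside 20.9% of all kept genes. Birc5, the survivin of the chromosomal passenger complex, had intensities of 359 and 868 on chow and 229.5 and 639 on GW501516 (2.79-fold higher). Mki67, the Ki-67 proliferation antigen, read 447.5 and 1017 on chow and 401 and 936 on GW501516 (2.33-fold higher), and Ccna2, the cyclin A2, 493 and 897 on chow and 362 and 849 on GW501516 (2.35-fold higher). Cdk1, the kinase that starts mitosis, read 530.0 and 958 on chow and 421 and 856 on GW501516 (2.03-fold higher).

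Others at 2-fold or more were Cenpf, a kinetochore protein (2.41-fold), Kif20a, a kinesin of cytokinesis (2.37-fold), Hmmr (2.18-fold), Ube2c and Cdc20 of the anaphase promoting complex (2.15-fold and 2.07-fold), Nusap1 (2.06-fold) and the checkpoint kinases Ttk (2.03-fold) and Bub1b (2.03-fold). Hmmr, Nusap1 and Cdc20 were under 2-fold with the mean over probe sets, at 0.74, 0.52 and 0.96 on the log2 scale, and Ttk with the higher floor, at 0.92. Kif23 at -0.05 was the single member below 0. Of 24 genes of DNA replication, 22 lay above 0 with a median of 0.59, beside 0.66 on chow, but only Uhrf1, which maintains DNA methylation at replication forks, reached 2-fold (237 and 487 on GW501516, 2.05-fold higher). Rrm2, the ribonucleotide reductase subunit, was 1.77-fold higher and Mcm2, of the replicative helicase, 1.9-fold higher.

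The immediate early genes, which cells switch on within minutes of a stimulus or handling, had a higher median difference on chow than on GW501516. Of 18 kept, 5 were at least 2-fold higher on chow (median 0.49), beside 5.46% of all kept genes. On GW501516, 0 reached 2-fold (median -0.08), which is near the shares of all kept genes (2.82% higher and 1.19% lower). Fos had intensities of 394 and 2802 on chow and 1486 and 1394 on GW501516 and Egr1 of 1217 and 4410 on chow and 1628 and 1639 on GW501516. Myc, a growth regulator, read 482 and 1540 on chow and 432 and 522 on GW501516, so the higher Myc of the transgenic pool on chow had no counterpart on GW501516.

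Genes that PPAR receptors are known to regulate were a mixed group. Of 19 PPAR target genes kept, 4 reached 2-fold upward and 0 downward, beside 2.82% and 1.19% of all kept genes. The median was 0.16 beside -0.04 on chow. Fabp3, given above among milk fat genes, had the largest difference of them. Acaa1b, a peroxisomal thiolase, had intensities of 829 and 3837.5 on chow and 1973 and 6432 on GW501516 (3.26-fold higher on GW501516, 4.63-fold higher on chow), and Acot1, an acyl-CoA thioesterase, 657 and 4503 on chow and 973 and 2494 on GW501516 (2.56-fold higher, 6.86-fold higher). Ucp3, a mitochondrial carrier of muscle and brown fat, read 256 and 393 on chow and 482 and 1055 on GW501516 (2.19-fold higher). The peroxisomal enzyme Ehhadh read 613 and 1250 on chow and 634.5 and 1255 on GW501516, just under 2-fold on GW501516 at 1.98-fold and 2.04-fold higher on chow.

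Other members were within 2-fold. Pdk4, the kinase that spares pyruvate, had intensities of 4172 and 4060 on chow and 5446 and 3719 on GW501516 and was 1.47-fold lower. Angptl4, an inhibitor of lipoprotein lipase, read 4852 and 4835 on chow and 4556 and 6285 on GW501516 (1.38-fold higher). Cpt1a, the gate of mitochondrial fatty acid import, read 765 and 943 on chow and 810.1 and 836 on GW501516 (0.05 on the log2 scale). Pdk4 was thus lowest in the transgenic pool on GW501516 and highest in the wild-type pool on GW501516.

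The rest of the list were Plin2 (0.94), Cidea (0.77), Vnn1 (0.61), Cd36 (0.16), Lpl (0.12), Fabp4 (-0.10), Plin4 (-0.12), Hadha (-0.13), Slc25a20 (-0.30), Acadvl (-0.35) and Plin5 (-0.38). All of these were within 2-fold on the log2 scale. Acot2, Cyp4a14 and Fgf21 did not reach 139 on any array. Of 16 peroxisomal oxidation and thioesterase genes, Acaa1b and Acot1 alone reached 2-fold, and the median was 0.12. Several are abundant in adipocytes, whose 16 markers summed to 119100 and 114012 on GW501516. The letters of a PPAR response element of the DR1 type, a pair of AGGNCA sites in the same orientation 1 base apart, searched on both strands, were in 0 of 15 windows of these targets. They were in 2 of 227 windows of the higher genes (0.881%), both of the gene Ceacam10, and in 0.206% of the windows of all kept genes.

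**Figure D4:**
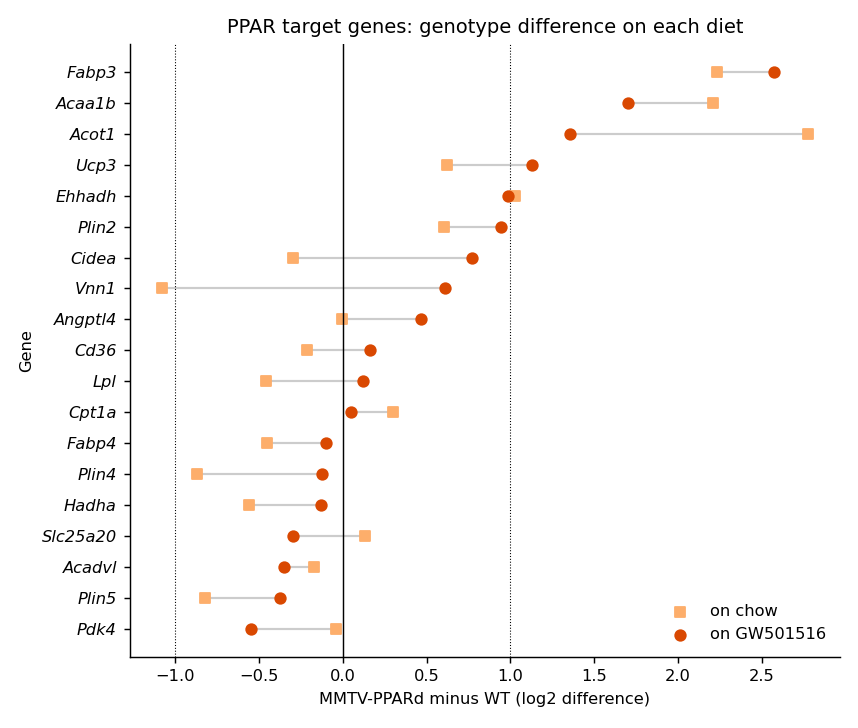
Log2 difference between genotypes for the 19 kept PPAR target genes on chow (light squares) and on GW501516 (dark circles), with dotted lines at 2-fold. Fabp3, Acaa1b, Acot1 and Ucp3 pass 2-fold on GW501516, while Pdk4 has the lowest value on that diet at -0.55. On chow, Vnn1 lies beyond 2-fold on the lower side.

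None of the receptors and partners of the list reached 2-fold, near the shares of all kept genes (2.82% higher and 1.19% lower). Their median of -0.05 changed sign with the processing. Pparg, the receptor of adipocytes, had intensities of 1770 and 1100.5 on chow and 1555 and 1035 on GW501516 and was 1.5-fold lower on GW501516, and Ppara read 148 and 135.5 on chow and 123 and 78.3 on GW501516 (1.57-fold lower). Rxra, a heterodimer partner, was 1.61-fold higher while Rxrb lay at -0.05. The coactivators Ppargc1a and Ppargc1b differed by -0.72 and -0.25, Ncoa1 by 0.03, Ncoa3 by 0.31, Med1 by -0.02 and Crebbp by -0.05 on the log2 scale, and Ncoa2 and Rxrg were not kept. The corepressor Nrip1 differed by 0.19 and the oxysterol receptor Nr1h3 by -0.46. Of 16 genes of the PDK1, AKT and mTOR pathway, 0 reached 2-fold, which is likewise near those shares. Their median was 0.00, with Pdpk1, the gene of PDK1, at -0.01.

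Lipid and energy metabolism differed mainly by small amounts. Mitochondrial fatty acid oxidation genes lay below 0 in 16 of 20, none at 2-fold, with a median of -0.20 beside -0.21 on chow, and respiratory chain genes in 19 of 25, with a median of -0.12. White adipocyte markers lay below 0 in 12 of 16, with a median of -0.24, so the oxidation genes moved with adipocyte markers, whose part in them was not tested. Of 21 genes of fatty acid and triglyceride synthesis 2 were at least 2-fold lower, with a median of -0.33. They were the elongases Elovl3, which makes very long saturated chains in skin and brown fat, with intensities of 95.3 and 839 on chow and 359.7 and 89.2 on GW501516 (4.03-fold lower), and Elovl6, at 1877 and 2699 on chow and 4315 and 1780 on GW501516 (2.42-fold lower).

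Not every lipogenic gene was lower. Srebf1, the master regulator of the pathway in lactation, was 1.83-fold higher, the desaturases Fads1 and Fads2 1.97-fold higher and 1.82-fold higher, and Elovl1 and Elovl5 1.97-fold higher and 1.67-fold higher, all under 2-fold. Fasn, the fatty acid synthase, lay at -0.33, Acly, which makes its acetyl-CoA, at -0.44, and Me1, which supplies its NADPH, at -0.94. Cholesterol synthesis genes had a median of 0.02, which changed sign with the processing. Of 15 glycolysis genes, Slc2a1 (above) and Aldoc were at least 2-fold higher, Aldoc with intensities of 872 and 1638 on chow and 997 and 3486 on GW501516.

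Of 11 brown adipocyte markers, 2 reached 2-fold downward and 1 upward, beside 1.19% and 2.82% of all kept genes. The median was -0.55, with 8 below 0 and 3 above, among them Cidea, given above. Ucp1, the uncoupling protein that defines brown fat, had intensities of 3316 and 4658 on chow and 5045.5 and 2264 on GW501516 (2.23-fold lower). Elovl3 was the other marker lower by 2-fold or more, and Slc27a2, an acyl-CoA synthetase also found in other tissues, was 2.23-fold higher. Ucp1 was highest in the wild-type pool on GW501516 and lowest in the transgenic pool on GW501516.

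The genes at least 2-fold lower were headed by products of salivary and other exocrine glands. Of 19 named members, with no filter, 8 reached 2-fold downward and 1 upward, and the median was -0.56. Of the 13 kept, 6 passed the filter only through the wild-type array on GW501516, where they are high, so the median of those kept (-2.83) is set by the filter and supports nothing. Bpifa2, a parotid secretory protein, had intensities of 6.3 and 1.3 on chow and 3719 and 9.4 on GW501516 (at least 181-fold lower). Chia1, an acidic chitinase, read 1.3 and 1.0 on chow and 579.9 and 4.9 on GW501516 (at least 28.3-fold lower) and Cst10, a cystatin, 1.4 and 1.4 on chow and 557 and 1.7 on GW501516 (at least 27.2-fold lower). Smr3a, a submaxillary gland protein, read 3.4 and 0.3 on chow and 442 and 2.2 on GW501516 (at least 21.6-fold lower), Dnase1, a secreted nuclease, 1.1 and 0.5 on chow and 266 and 0.9 on GW501516 (at least 13-fold lower) and Pip, the prolactin-induced protein, 9.1 and 5.7 on chow and 146 and 11.6 on GW501516 (at least 7.11-fold lower). These 6 were above the floor on 1 array only, the wild-type pool on GW501516, and below it in all others, wild-type chow included, so the pool that stands apart is the wild-type one.

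Fcgbp, a mucin-like binding protein, had intensities of 149 and 196 on chow and 500.2 and 29.5 on GW501516 (17-fold lower) and was present on chow. Amy1, an amylase, lay at -0.62, Egf at 0.04 and Aqp5 at -0.01, and Car6, a secreted carbonic anhydrase, read 18.1 and 106.5 on chow and 339.9 and 783 on GW501516 (2.3-fold higher), so not all exocrine genes shared the pattern. Whether the wild-type pool on GW501516 held another gland was not tested. Of the 93 lower genes, 7 were above the floor in that pool alone, 65 had their highest value of the 4 arrays there, and 67 had their lowest in the transgenic pool on GW501516, positions that the choice of lower genes favours.

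**Figure D5:**
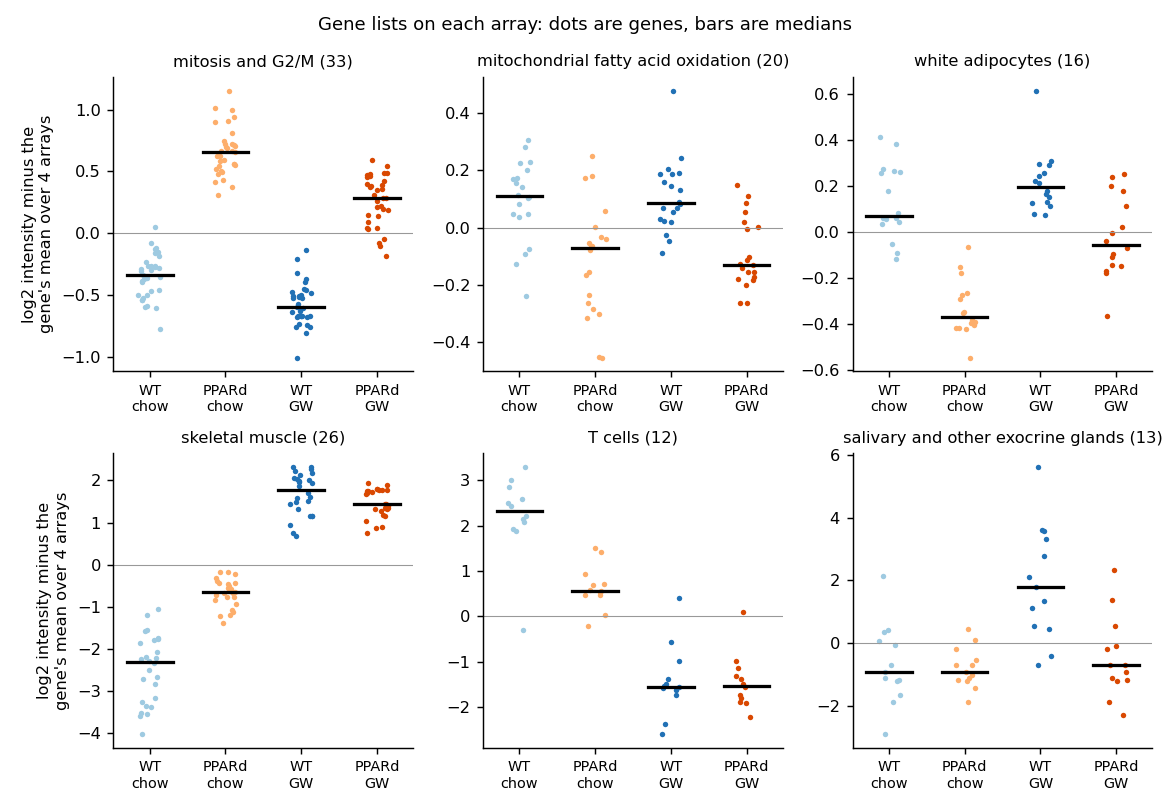
Log2 intensity of each gene minus that gene's mean over the 4 arrays, for 6 gene lists (number of genes in brackets), with list medians as black bars; the vertical scales differ between panels. Mitosis genes are high in both transgenic pools, muscle genes are high and T cell genes low on both GW501516 arrays, and salivary genes stand out in the wild-type pool on GW501516.

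Among other lower genes, Clca3a2, a chloride channel accessory protein, had intensities of 386 and 831 on chow and 933 and 111 on GW501516 (8.4-fold lower), and Bmp2, a bone morphogenetic protein, 166 and 115 on chow and 146 and 37.7 on GW501516 (3.88-fold lower). Slc2a5, the fructose carrier, read 86.6 and 104 on chow and 174 and 45.2 on GW501516 (3.85-fold lower), Ncan, the proteoglycan neurocan, 53.9 and 47.8 on chow and 142 and 28.8 on GW501516 (4.93-fold lower) and Cxcl13, a chemokine that attracts B cells, 2189 and 1032 on chow and 709 and 209 on GW501516 (3.38-fold lower). Timp1, an inhibitor of matrix metalloproteases, read 1092 and 314 on chow and 973 and 359.6 on GW501516 and was 2.71-fold lower on GW501516 and 3.47-fold lower on chow, low in both transgenic pools. Ccl11, the eotaxin, read 1259 and 1306 on chow and 1507 and 748 on GW501516 (2.02-fold lower). Cxcl13 and Ccl11 were the members at 2-fold among 14 chemokines, whose median was -0.21. Ccl11 was just under 2-fold, at -0.99 on the log2 scale, with the arrays shifted to one median. Upk3a, a uroplakin, and Ear3, an eosinophil-associated ribonuclease, were 3.45-fold lower and 3.57-fold lower (Ear3 at -0.83 on the log2 scale with the floor at the 40th percentile), and 2310057J18Rik was at least 9.9-fold lower. The low values of Mtch2 (4518 and 975 on GW501516) and Cox15 (357 and 94.8), both of mitochondria, were not shared by their other probe sets, which gave medians of -0.12 and -0.06 on the log2 scale.

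The remaining genes of the highest 20 had no list. Plac1, a protein of placental trophoblast, had intensities of 9.2 and 1823 on chow and 15.8 and 2075 on GW501516 and was at least 101-fold higher on GW501516 and at least 88.9-fold higher on chow, below the floor in both wild-type pools and far above it in both transgenic pools. Chrdl2, a chordin-like antagonist of bone morphogenetic proteins, read 5.5 and 186 on chow and 39.2 and 799.5 on GW501516 (20.4-fold higher), Tc2n 23.7 and 46.9 on chow and 26.9 and 499 on GW501516 (18.6-fold higher) and Klk11, a kallikrein protease, 22.5 and 69.1 on chow and 45.1 and 506.5 on GW501516 (11.2-fold higher). Gldc, the glycine decarboxylase, read 8.1 and 89.3 on chow and 16.4 and 244 on GW501516 (at least 11.9-fold higher), and Aass, which starts lysine breakdown, 30.3 and 100.3 on chow and 20.9 and 183 on GW501516 (8.77-fold higher). Cyp24a1, the enzyme that degrades active vitamin D, read 30.4 and 41.9 on chow and 16.7 and 183 on GW501516 (at least 8.91-fold higher), but its further probe set was at the floor on both arrays.

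By list medians, muscle, fibroblast, macrophage and endothelial markers differed little between the GW501516 pools, whereas the brown adipocyte list had a median of -0.55. Skeletal muscle markers summed to 179987 and 170326 with a median of -0.25, none of 26 at 2-fold and Acta1, Ckm and Myh1 at 0.14, 0.00 and -0.38, although both were far above the chow arrays, at 20774 and 48735. Fibroblast and matrix markers had a median of -0.12, with Col1a1, Col1a2 and Col3a1 at -0.38, 0.13 and 0.00. Macrophage markers had a median of -0.10, with Cd68 at -0.06, Adgre1 at 0.01 and Csf1r at -0.24. Endothelial markers had a median of -0.01, with Pecam1 at 0.03, Cdh5 at 0.07 and Kdr at 0.09. None of these 3 lists held a gene at 2-fold, nor did the 8 genes of MHC class II presentation, with a median of -0.26. Such counts, like that of muscle, lie near the shares of all kept genes (2.82% higher and 1.19% lower).

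Lymphocyte markers were near the floor in both pools, and 2 were at least 2-fold lower, Cd3e of T cells (48.7 and 9.8) and Cd79b of B cells (113 and 48.8). Cd3d and Cd3g of the same receptor as Cd3e read 30.8 and 40.4 and 27.5 and 38.5, slightly the other way, Cd79a was not kept, and of the erythroid list 1 gene was kept, Hba-a1 being below the floor on all arrays. With the floor at the 40th percentile Cd3e was at the floor on both arrays and Cd79b lay at -0.67 on the log2 scale. On chow, muscle markers had a median of 1.56 and T cell markers of -1.57, and so close to the floor no difference in lymphocyte markers can be read on GW501516. Adipocyte markers Adipoq, Lep and Retn lay at 0.09, -0.34 and -0.24. Of the Schwann cell list, Sox10, a factor also expressed in mammary epithelium, read 150.5 and 403 on chow and 143.5 and 729 on GW501516 (5.08-fold higher), with 0.39 on the log2 scale from its other probe sets, and Pmp22 and Mbp lay at -0.40 and -0.23.

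Hormone and growth factor signals gave few differences of 2-fold, as did all kept genes (2.82% higher and 1.19% lower). Greb1, an estrogen-induced gene, had intensities of 149 and 15.9 on chow and 29.0 and 71.5 on GW501516 (2.47-fold higher on GW501516, at least 7.27-fold lower on chow). With the floor at the 40th percentile its difference on GW501516 was 0.01 on the log2 scale. Tnfsf11, the RANK ligand through which progesterone drives side branching, read 92.3 and 382 on chow and 10.1 and 0.7 on GW501516, above the floor only on the chow arrays. Rspo1, a WNT amplifier, read 67.8 and 1604.5 on chow and 58.4 and 39.7 on GW501516, so that its high level in the transgenic pool on chow was not seen on GW501516. Of 14 WNT pathway genes, Wif1, a secreted inhibitor, was 2.25-fold higher and Wnt5b 2.2-fold lower, and of 7 genes of the ERBB receptors, Errfi1, a feedback inhibitor, was 2.04-fold lower with intensities of 1720.5 and 2444 on chow and 2859 and 1400 on GW501516. With the same higher floor Wnt5b lay at -0.68. Egfr, Erbb2 and Erbb3 lay at -0.06, 0.42 and 0.35.

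Of 14 genes of eicosanoid enzymes and receptors, Ptger2, a receptor for prostaglandin E2, was 2.8-fold higher, with intensities of 154 and 253.5 on chow and 159.7 and 446.5 on GW501516. Of 14 matrix metalloproteases and inhibitors, Mmp12, a macrophage elastase, was 2.15-fold higher at 35.0 and 75.3, but 0.08 on the log2 scale with the floor at the 40th percentile. Of 17 interferon response genes, Oas2 alone reached 2-fold (2.11-fold lower), and the list median was 0.15. The circadian clock list, which can mark the hour of dissection, had a median of -0.23 with 0 of 13 at 2-fold, and cytosolic ribosomal proteins had a median of 0.10 with 0 of 16.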

How the data were processed

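Per the labels' protocols, biotin-labelled cRNA from pooled mammary RNA was hybridised to 4 Affymetrix mouse arrays. The deposited values were linear probe set intensities, scaled to a common trimmed mean (mean without the lowest and highest 2%), tested on the values. Of the summarisation algorithm, scanner software, detection calls and genome build, each is not given in the sources used here.

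Probe sets were named through the platform annotation, and older symbols were replaced by RefSeq's current ones: 20393 had 1 symbol (20364 matched by gene ID), 691 several, which name no gene here, and 1606 were unnamed. Differences were log2(transgenic) minus log2(wild type) after the floor and filter given above, computed with Python 3.11.15, numpy 2.4.6 and pandas 2.3.3. Precision is limited by the number of arrays.

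With 1 array per group no test, p-value or interval was computed. The calculation of differences was tested on simulated data without the filter and with a lower floor. That simulation did not cover the floor and filter used here, and its noise was not drawn from scatter between pools. The genes and the 46 gene lists were chosen with earlier results of these data known, so no list is independent evidence of its direction. The genes named were Ppard, the 20 highest and the 20 lowest, list members at 2-fold or more, all members of the milk, alveolar, luminal, basal, PPAR receptor and PPAR target lists, the first 3 markers of each cell type, and genes at 2-fold in opposite directions on the 2 diets. Further genes are examples of a list or lie nearest the threshold, and were chosen after their values were seen. Unnamed list members were not analysed here. Scaling, floor, filter and choice of probe set were varied. Promoter sequences came from RefSeq's table.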

Additional observations from a re-analysis of the deposited data

Results flagged for a closer look

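In 11 genes the genotype difference was at least 2-fold on both diets but in opposite directions. Each diet has 1 pool per genotype, and the difference between diets was not tested. Higher with the transgene on GW501516 and lower on chow were Lalba (log2 2.55 on GW501516 and -1.97 on chow), Greb1 (1.30 and -2.86), Ang3, an angiogenin-family ribonuclease (1.09 and -2.49), Tgm1, a transglutaminase of keratinocytes (1.09 and -1.02), and 1110008P14Rik (1.11 and -1.01). Lower on GW501516 and higher on chow were Clca3a2 (-3.07 and 1.11), Elovl3 (-2.01 and 3.14), Defb1, a beta-defensin (-1.35 and 1.94), Wnt5b (-1.14 and 1.68), Serpinb5, the maspin of myoepithelium (-1.10 and 1.14), and Txlnb, a muscle gene (-1.01 and 2.03). For Defb1 the GW501516 side, and for Greb1, Ang3 and Txlnb the chow side, has an array at the floor, so those values depend on it. With the floor at the 40th percentile, Greb1 (0.01), Defb1 (0.00) and Wnt5b (-0.68) were under 2-fold on GW501516. The other probe set of Txlnb gave -0.04 on GW501516, and with the mean over probe sets Txlnb (-0.52) and 1110008P14Rik (0.73) were under 2-fold. Serpinb5 was at -0.55 without probe sets shared between transcripts.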

How the results depend on the processing

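The count of genes at least 2-fold higher, 221 as reported, lay between 197 and 294 under 7 of the 8 alternatives and was 131 with the filter at the 75th percentile, which keeps 4375 genes in place of 7836. The count of lower genes, 93 as reported, lay between 81 and 98 under 6 of them, was 38 with that filter and 149 with no filter, which keeps 12394 genes. Another scaling moved the median of all genes to between -0.01 and 0.02 and the share of higher among differing genes to between 70.1% and 72.9%. With the mean over a gene's probe sets, 185 of the higher and 74 of the lower genes were shared. Of 112 named genes at 2-fold or more, at most 10 came under 2-fold in any setting, and 0 turned sign. The filter at the 75th percentile kept only 73 of the 112. Over all settings, 1477 values of named genes moved by less than 0.358, the SD between probe sets of a gene, and 80, in 57 genes, by more. A change of filter cannot move the value of a gene, and a change of floor moves only genes near it. Many of the 1477 were thus unmoved by construction. Of list medians, 350 moved by less and 15, in 9 lists, by more. The sign of the median turned for the basal, PPAR receptor, cholesterol, mTOR and endothelial lists, within -0.13 to 0.25. It also turned for the ERBB and B cell lists, which lay at -0.75 and -0.73 with the strictest filter, where 3 and 2 genes were left. Mtch2 and Cox15 lay at -0.45 and -0.36 with the mean over probe sets. Genes near the floor have only bounds, and 26 kept genes were at the floor on both GW501516 arrays. No paired analysis was possible because each group is 1 array.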

Other observations

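The caseins lie in a row on mouse chromosome 5, and their kept neighbours did not all share their direction. In the order of RefSeq's gene table, Csn1s1, Csn2, Csn1s2a, Csn1s2b and Csn3 are followed by Smr3a and Smr2, genes of salivary secretions, and further on by Jchain. The 5 caseins had log2 differences of 1.34, 0.49, 0.83, 6.58 and 0.44, Smr3a -4.43, Smr2 -0.85 and Jchain 1.01. Prol1, kept and lying between Smr2 and Jchain, was at 0.0. The values of Csn1s2b and Smr3a have 1 side at the floor and are bounds. Csn1s2b passed the filter only through the transgenic GW501516 array and Smr3a only through the wild-type one. The filter thus fixes the direction of these 2 genes. Smr2 read 33.4 and 89.7 on chow and 447 and 248 on GW501516, so both GW501516 pools stood above both chow pools.

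Some genes outside the lists, chosen after their values were seen, belong to the handling of milk cargo and ions. Fam20c, the Golgi kinase that phosphorylates caseins, read 164 and 594 on chow and 255 and 755.5 on GW501516 (2.96-fold higher), Atp2c2, a Golgi calcium and manganese pump, 47.0 and 63.8 on chow and 113 and 513 on GW501516 (4.55-fold higher) and Tmem165, a Golgi cation transporter, 1715 and 1996 on chow and 1436 and 4052 on GW501516 (2.82-fold higher). The membrane serine proteases Prss8 and St14, known as prostasin and matriptase, read 144 and 331 on chow and 139.9 and 408.5 on GW501516 and 380.4 and 959.7 on chow and 596.5 and 1357 on GW501516 (2.92-fold higher and 2.27-fold higher), beside the sodium channel subunits Scnn1g and Scnn1b. The potassium channels Kcnn4, Kcnk1, Kcnq1 and Kcnk5 were 6.81-fold, 4.64-fold, 3.51-fold and 2.34-fold higher, while Kcna7, also a potassium channel, was 2.51-fold lower. Vdr, the vitamin D receptor, read 99.4 and 318 on chow and 129.5 and 299 on GW501516 and was 2.31-fold higher on GW501516 and 3.2-fold higher on chow.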
